A study of Mus musculus with 7 samples.

Results

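Retinoid metabolism and retinoic acid response were followed through primary cultures of newborn mouse hippocampus with 9 genes, taken by symbol from the 31053 in the deposited matrices. They are Stra6 (ENSMUSG00000032327), Rdh10 (ENSMUSG00000025921), Aldh1a1 (ENSMUSG00000053279), Aldh1a2 (ENSMUSG00000013584), Aldh1a3 (ENSMUSG00000015134), Crabp1 (ENSMUSG00000032291), Crabp2 (ENSMUSG00000004885), Rarb (ENSMUSG00000017491) and Cyp26b1 (ENSMUSG00000063415). The 9 genes were selected on their measured UMI levels in these cultures, by class and day, above all that of Aldh1a1 in glia, so their levels are given as a description without a test. Tests are given for 49 other genes of the pathway, a list that was also chosen with earlier results of these data known.

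Retinoic acid is a signal made from vitamin A. STRA6 is a membrane receptor that takes retinol into the cell from its plasma carrier. RDH10 oxidises retinol to retinaldehyde, and the dehydrogenases ALDH1A1, ALDH1A2 and ALDH1A3 oxidise retinaldehyde to retinoic acid. CRABP1 and CRABP2 bind retinoic acid in the cytoplasm, RARB is a nuclear receptor for it whose own gene is a classical target, and CYP26B1 breaks it down. In the brain, meningeal fibroblasts are a known source of retinoic acid through Aldh1a2.

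Cells of the hippocampi of P0 mice, of a strain not given in the sources used here, were separated with trypsin and grown on poly-D-lysine glass in a medium with serum and B-27 supplement. The groups are the culture times, 1, 3, 5 and 7 days in vitro (DIV), and the labels give no treatment or genotype that differs between them. There was 1 library at DIV1 and 2 each at DIV3, DIV5 and DIV7. RNA was counted by droplet sequencing of transcript 3' ends (10x 3' v2), where each unique molecular identifier (UMI) stands for 1 captured RNA molecule. Whether the 2 libraries of a day came from separate cultures is not given in the labels. The p-values below therefore cover the variation among these libraries and no more, and it may be technical.

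The 7 libraries hold 3009 to 5401 barcodes and 36226566 to 114119537 UMIs, and the median UMIs per barcode lie between 6988 at DIV1 and 19595 in DIV3 replicate 1. A cell was kept if it had 500 or more detected genes and no more than 10% of its UMIs from mitochondrial genes. The mitochondrial limit removed 17.7% of the barcodes of DIV7 replicate 1 and 1.38% to 5.90% of the others. After removal of predicted doublets 26372 cells in 28 clusters remained. Of these, 1962 were fibroblast-like, 10055 radial glia or astrocyte-like (called glia below) and 4496 glutamatergic neuron-like (called neurons below). The labels list neurons, radial glia and several other cell types and name no fibroblasts. The 8 fibroblast markers, collagens among them, summed to between 4513 and 9577 counts per 1000000 UMIs of the class (CPM) in the fibroblasts, against 26.9 to 92.1 CPM in glia. The DIV1 library held 3 fibroblast-like cells, so fibroblast levels start at DIV3.

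DIV3 replicate 1 stood apart from the others: it held 1121 of the 1181 cells of a cycling cluster, 1673 of its 1714 glia fell in a cluster led by Lcn2 and Isg15, and all 415 of its fibroblasts fell in the cluster led by Crct1 and Timp1. Different clusters also made up the glia on each day. A cluster led by Hes5 and Vgf held 914 of the 918 DIV1 glia, and clusters led by Steap4, Neat1 and A2m or by Slc1a2, Gfap and Aqp4 held most glia of DIV5 and DIV7. Any 2 libraries shared between 12 and 37 cell barcodes.

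The pathway was divided among the classes step by step. Over all kept cells, fibroblasts held 91.6% of Stra6 UMIs, 90.6% of Aldh1a2 UMIs, 77.7% of Crabp2 UMIs, 67.3% of Cyp26b1 UMIs and 65.1% of Rarb UMIs. Glia held 71.4% of Aldh1a1 UMIs. Rdh10 was shared, with 10.5% of its UMIs in fibroblasts, 39.8% in glia and 25.2% in ciliated (ependymal) cell-like cells. Neurons held 11.99% of Cyp26b1 UMIs and at most 8.15% of those of any other of the genes. Shares of UMIs depend on how many cells of a class a library holds and on their depth, and the median fibroblast had 24834.5 UMIs, against 11359 in glia and 8232.5 in neurons.

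**Figure D1:**
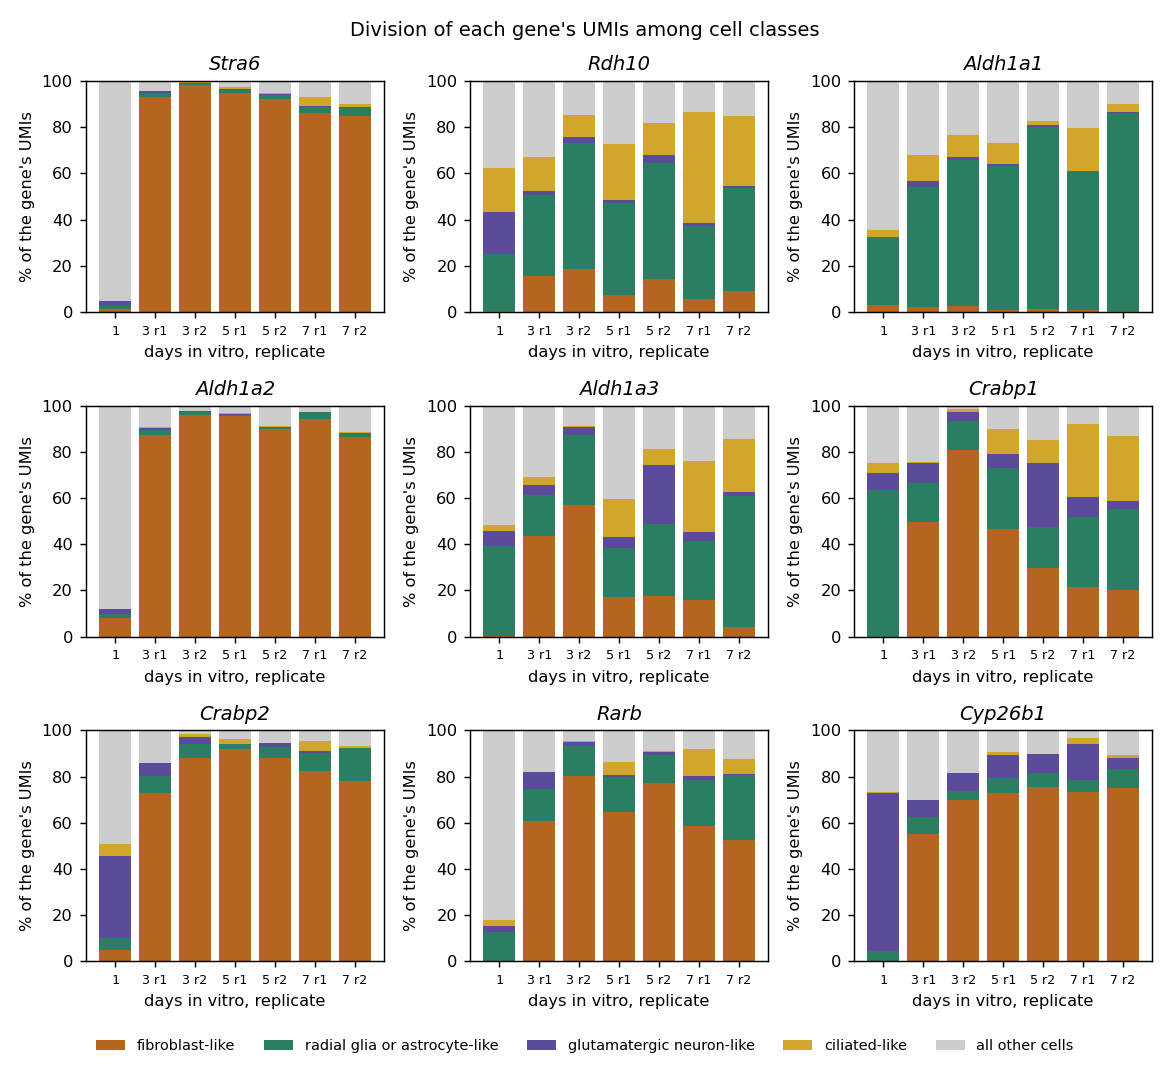
Share of each gene's UMIs, in percent, by class of cell (colours) in each of the 7 libraries, ordered by day in vitro and replicate (r1, r2). Fibroblasts held 84.9% to 98.1% of Stra6 and 86.6% to 96.0% of Aldh1a2 UMIs from DIV3 on, and glia held 52.0% to 85.8% of Aldh1a1 UMIs on the same days.

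Stra6, the retinol receptor, was a fibroblast transcript in these cultures. Its level in fibroblasts was 35.7 and 105 CPM in the DIV3 libraries, 218 and 172 CPM in the DIV5 libraries and 134 and 150.3 CPM in the DIV7 libraries. Both DIV7 libraries lay above both DIV3 libraries and below both DIV5 libraries. Averaged per day this was 70.4 ± 49.1 CPM at DIV3, 195 ± 32.4 at DIV5 and 142 ± 11.5 at DIV7 (SD, n = 2 libraries each), so the DIV3 replicates lay almost as far apart as the means of DIV3 and DIV7. In glia Stra6 stayed at or under 1.58 CPM in every library and in neurons at or under 1.06 CPM.

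At equal depth, after each cell was thinned to 5000 UMIs, 42.1% of fibroblasts had a Stra6 UMI (68.5% before thinning), against 1.15% of microglia or macrophage-like cells (2.48% before thinning), whose median depth was 13797 UMIs. Microglia are taken here as the cell type that should lack these genes, and their share as the level that free RNA in the droplets can give. Cajal-Retzius-like cells, early neurons of the hippocampal surface, had 5.46% of thinned cells with a Stra6 UMI, and their level was 5.02 CPM at DIV1, 16.5 and 13.4 CPM at DIV5 and 54.0 CPM in DIV7 replicate 1, from 6 to 25 UMIs a library.

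Rdh10, the retinol dehydrogenase, had its highest level in ciliated-like cells. These cells held 88.5 CPM at DIV1 (exact Poisson 95% interval 71.3 to 108.7, counting error only), 152 and 180.3 CPM at DIV3, 129.8 and 137 CPM at DIV5, and 178 and 145 CPM at DIV7. In fibroblasts the level was 27.5 and 25.6 CPM at DIV3, 28.7 and 32.0 CPM at DIV5 and 39.0 and 41.3 CPM at DIV7, with both DIV7 libraries above all others. In glia it was 13.9 CPM at DIV1 (11.5 to 16.6), 33.5 and 45.2 CPM at DIV3, 68.9 and 54.0 CPM at DIV5 and 85.7 and 48.6 CPM at DIV7. The glial DIV7 libraries lay on either side of those of DIV5, and both lay above DIV3.

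The spread of glial Rdh10 at DIV7 went with the make-up of the class. The cluster led by Steap4 and Neat1 had 89.5 and 78.8 CPM at DIV7 and made up 905 of 1025 glia in replicate 1 and 359 of 1955 in replicate 2, and the cluster led by Slc1a2 and Gfap had 46.3 and 42.0 CPM. The part of this make-up in the class level was not tested. Neurons held 4.99 to 10.9 CPM of Rdh10, of the order of the 1.89 to 18.2 CPM in microglia, and 3.09% of thinned neurons had a UMI of it, against 4.36% of thinned microglia. That neuronal share is not above the level taken here as background.

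Aldh1a1 had most of its UMIs in glia, and its level there was highest at DIV7. Its glial level was 1.06 CPM at DIV1 (0.483 to 2.01), 6.19 and 5.06 CPM at DIV3, 68.4 and 75.3 CPM at DIV5 and 141 and 164 CPM at DIV7. No 2 days overlapped. The fitted difference of DIV7 over DIV3 was 4.63 ± 0.29 on the log2 scale (± SE, n = 2 libraries per day), and this change was among the values that chose the gene. Under a stricter cell filter (at least 1000 genes, at most 5% mitochondrial UMIs, with new clusters) it was 3.47. That filter left 84 and 410 glia at DIV7, with 49.6 and 70.5 CPM, against 4.69 and 5.38 CPM at DIV3.

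Aldh1a1 differed between glial clusters. None of the 9 genes was used for clustering, though Aldh1a1 was among the 10 leading genes by fold of the cluster led by Steap4 and Neat1. At DIV7 the level was 351 and 197 CPM in the cluster led by Slc1a2, Gfap and Aqp4, 318 and 141 CPM in a small cluster led by Glycam1 and Aldoc, 129 and 71.6 CPM in the cluster led by Steap4 and Neat1, and 46.3 and 28.9 CPM in one led by Hist1h2ap and Pcp4 that had 4.48 CPM in DIV3 replicate 2. Within each of the clusters present in both DIV7 libraries, replicate 1 was higher. The order between clusters was the same in both DIV7 libraries. Within the last of these clusters the level was 4.48 CPM at DIV3, 24.4 and 13.4 CPM at DIV5 and 46.3 and 28.9 CPM at DIV7, so days also differed inside a cluster. Its DIV7 values rest on 27 and 22 cells. The glial marker list summed to 4905 CPM in DIV1 glia and to 6672 and 6487 CPM at DIV3. Its sum was 11128 and 21294 CPM at DIV5 and 16283 and 29990.1 CPM at DIV7. DIV5 replicate 2 had a higher sum than DIV7 replicate 1 and a lower level of Aldh1a1. In every library 12 of 12 of these markers were above 0. Their part in the level of Aldh1a1 was not tested.

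Other cells held Aldh1a1 as well. The unnamed clusters had 14.2% of its UMIs, at 97.6 and 74.4 CPM at DIV7, and most of these were in a cluster led by Ckap2 and Lockd, with 103 and 77.6 CPM at DIV7. Oligodendrocyte lineage-like cells had 1.81 CPM at DIV1, 14.1 and 20.2 CPM at DIV3, 56.8 and 43.5 CPM at DIV5 and 85.7 CPM in DIV7 replicate 2. Ciliated-like cells had 0.973 CPM at DIV1, 14.8 and 16.9 CPM at DIV3, 31.8 and 16.3 CPM at DIV5 and 59.1 and 30.9 CPM at DIV7. At DIV3 oligodendrocyte lineage-like and ciliated-like cells thus both lay above glia, which had 6.19 and 5.06 CPM. At DIV5 and DIV7 both lay below glia. Fibroblasts had 4.12 and 3.96 CPM and neurons 2.41 and 5.78 CPM at DIV7, below the 13.0 and 18.4 CPM of microglia. The values of fibroblasts and neurons are thus not above the level taken here as background. Whether the microglial level is free RNA alone was not tested. In DIV1 neurons no Aldh1a1 UMI was found, which allows up to 0.238 CPM.

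**Figure D2:**
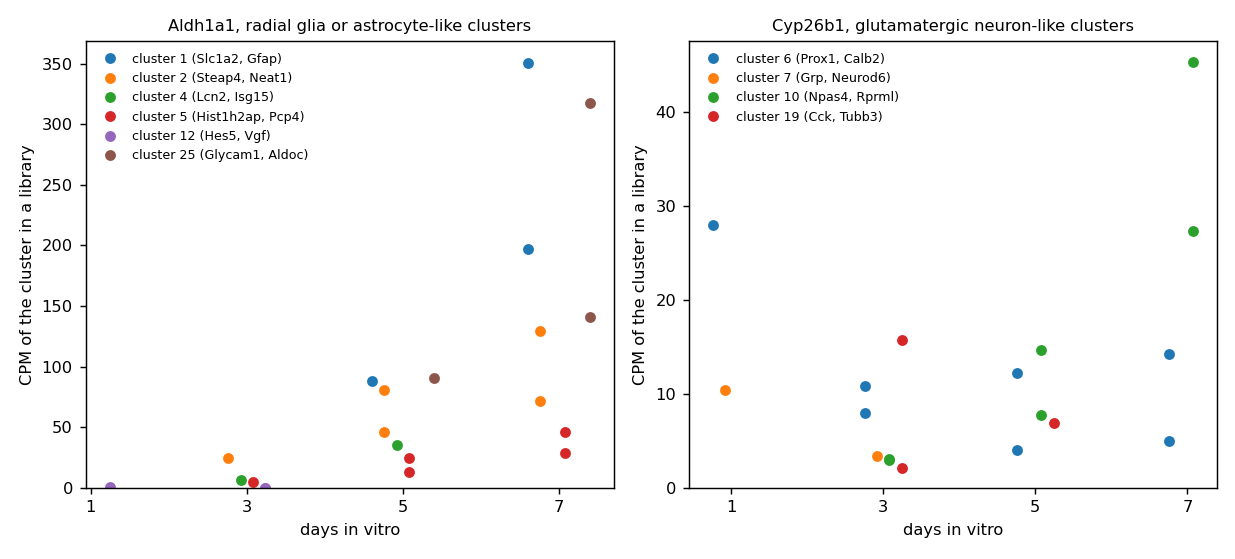
CPM of Aldh1a1 in the glial clusters (left) and of Cyp26b1 in the neuron clusters (right) by day in vitro, 1 point per cluster and library with at least 20 cells, colours for clusters and their leading genes. At DIV7 Aldh1a1 reached 351 and 197 CPM in the cluster led by Slc1a2 and Gfap, and Cyp26b1 reached 45.3 and 27.3 CPM in the cluster led by Npas4 and Rprml.

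Aldh1a2, the dehydrogenase of embryonic and meningeal retinoic acid synthesis, was at 78.5 and 102 CPM in DIV3 fibroblasts, 81.1 and 44.5 CPM in DIV5 fibroblasts and 55.7 and 62.6 CPM in DIV7 fibroblasts. Both DIV7 libraries lay below both DIV3 libraries, with a fitted difference of -0.81 ± 0.30 (log2 ± SE), while the DIV5 libraries spanned the DIV7 ones. Mural cell-like cells held 59.3 and 24.2 CPM at DIV3, and glia held at most 1.07 CPM on any day. Thinned to equal depth, 27.1% of fibroblasts had an Aldh1a2 UMI (61.1% before thinning), against 0.513% of microglia (2.71%). Stra6 was thus higher and Aldh1a2 lower in fibroblasts of DIV7 than in those of DIV3.

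Aldh1a3 was low after DIV1 and varied widely between replicates. Microglia held 1.75 to 7.58 CPM of it, which covers many of the values below. In fibroblasts it was at 9.97 and 34.3 CPM at DIV3, 8.48 and 5.91 CPM at DIV5 and 10.2 and 3.08 CPM at DIV7, so the DIV3 replicates lay further apart than the daily means. In glia it was at 29.8 CPM at DIV1 (26.3 to 33.7), 2.21 and 11.004 CPM at DIV3, 4.77 and 4.89 CPM at DIV5 and 6.17 and 9.64 CPM at DIV7. The DIV1 level lay above all later ones, in a library made up of other glial clusters. Neurons held 1.504 to 8.24 CPM, nearly all within the range of microglia.

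At DIV1, where fibroblast-like cells were nearly absent, a cluster led by Tfpi2, Gja4 and Cldn5 held 88.0% of Aldh1a2, 79.0% of Stra6, 59.0% of Rarb and 36.9% of Aldh1a3 UMIs of that library. The cluster (189 of its 191 cells at DIV1) scored highest for endothelial markers, with fibroblast markers second. In the 103 of its cells with more fibroblast markers than endothelial or mural ones, the levels were 41.4 CPM for Stra6, 29.2 CPM for Aldh1a2 and 102 CPM for Aldh1a3. In the 46 cells with more endothelial markers, they were 1.51 CPM for Stra6, from 1 UMI, and 24.1 CPM for Aldh1a3, and no Aldh1a2 UMI was found. The other 40 cells held Aldh1a3 at 172.7 CPM, above both, and 2 UMIs of Stra6 and 1 of Aldh1a2. These cells were split after their values had been seen.

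Crabp1, which holds retinoic acid in the cytoplasm, was at 51.2 CPM in DIV1 glia (46.5 to 56.2) and at 29.2 CPM in DIV1 ciliated-like cells (19.7 to 41.7). Later glia held 5.37 and 3.39 CPM at DIV3, 7.00 and 2.30 CPM at DIV5 and 8.48 and 3.37 CPM at DIV7, all far below the DIV1 level and overlapping between days. Fibroblasts held 29.95 and 35.7 CPM at DIV3, 27.5 and 8.18 CPM at DIV5 and 15.6 and 8.13 CPM at DIV7, with both DIV7 libraries below both DIV3 libraries. Among neurons Crabp1 sat in the cluster led by Prox1, a transcription factor of dentate granule neurons, at 19.8 CPM at DIV1, 16.2 and 8.16 CPM at DIV3, 16.5 and 33.9 CPM at DIV5 and 15.1 and 4.97 CPM at DIV7. In the cluster led by Npas4 and Rprml it stayed between 1.04 and 3.72 CPM.

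Crabp2, the binding protein that passes retinoic acid to the nuclear receptor, was low and found mostly in fibroblasts. It was at 7.34 and 11.4 CPM at DIV3, 13.6 and 14.7 CPM at DIV5 and 20.1 and 18.2 CPM at DIV7, and the 3 days did not overlap. Glia held at most 0.777 CPM and neurons at most 1.66 CPM. In fibroblasts 5.98% of thinned cells had a Crabp2 UMI, against 0.385% of microglia. The binding proteins thus ran opposite ways in fibroblasts, with Crabp1 lower (-1.67 ± 0.60) and Crabp2 higher (0.84 ± 0.27) at DIV7 than at DIV3 (log2 ± SE).

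**Figure D3:**
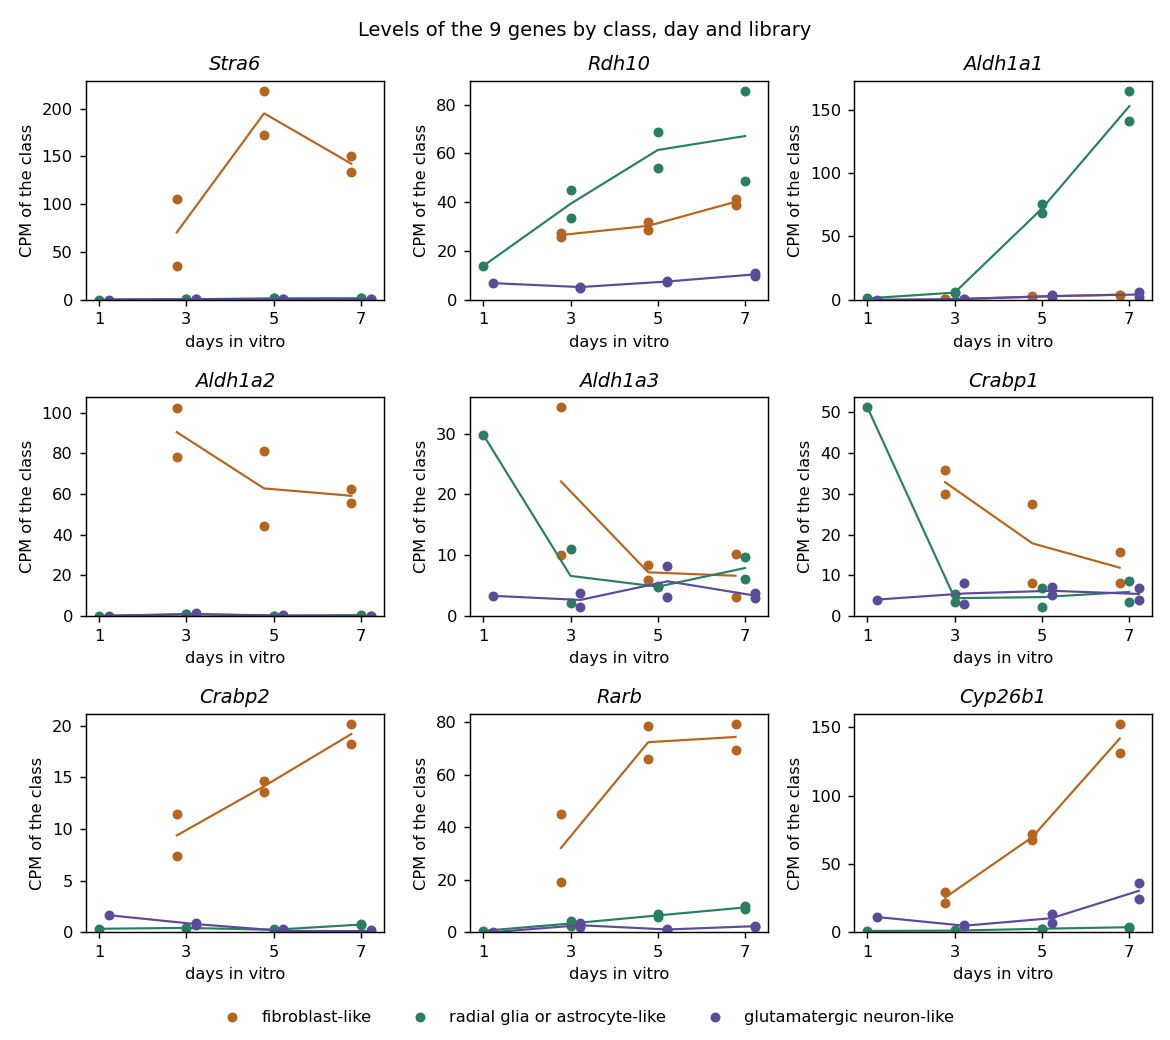
CPM of each of the 9 genes in fibroblasts, glia and neurons by day in vitro, with 1 point per library and lines through the daily means. The fibroblast levels of Crabp2 (7.34 to 20.1 CPM) and Cyp26b1 (21.3 to 152 CPM) and the glial level of Aldh1a1 (1.06 to 164 CPM) were ordered by day without overlap.

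Rarb, the receptor gene that responds to retinoic acid, was at 19.3 and 45.0 CPM in DIV3 fibroblasts, 66.2 and 78.7 CPM in DIV5 fibroblasts and 69.5 and 79.3 CPM in DIV7 fibroblasts. Both DIV7 libraries lay above both DIV3 libraries, by 1.03 ± 0.34 (log2 ± SE), and DIV5 and DIV7 overlapped. The fibroblast cluster led by Ifitm1 and Mgp had 53.6 CPM in DIV3 replicate 2, 72.01 and 89.2 CPM at DIV5 and 73.7 and 80.9 CPM at DIV7. In the cluster led by Crct1 and Timp1 the level was 19.3 and 33.6 CPM at DIV3, 50.1 and 41.9 CPM at DIV5 and 48.9 and 75.0 CPM at DIV7, so it was lower than in the first cluster in each library that held both.

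Glia held less Rarb, at 0.587 CPM at DIV1, 2.37 and 4.38 CPM at DIV3, 6.95 and 5.97 CPM at DIV5 and 8.97 and 10.1 CPM at DIV7, with no overlap between days. Both DIV7 values lay above the 3.65 and 5.23 CPM of DIV7 microglia. At equal depth 25.7% of fibroblasts and 2.93% of glia had a Rarb UMI, against 1.03% of microglia. Neurons held at most 3.56 CPM.

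Promoters are shown because the retinoic acid receptor binds pairs of a short hexamer, and Rarb is the textbook gene with such a pair at its start. Windows from 250 bases before to 50 after the start came from RefSeq (GRCm38.p6) for 6 of the 9 genes, in 10 windows, while the counts themselves were made against another build. Capitals mark this hexamer on either strand, in the spellings AGGTCA or AGTTCA and in the spellings GGGTCA or GGTTCA.
Rarb, chr14:16575427-16575726, minus strand: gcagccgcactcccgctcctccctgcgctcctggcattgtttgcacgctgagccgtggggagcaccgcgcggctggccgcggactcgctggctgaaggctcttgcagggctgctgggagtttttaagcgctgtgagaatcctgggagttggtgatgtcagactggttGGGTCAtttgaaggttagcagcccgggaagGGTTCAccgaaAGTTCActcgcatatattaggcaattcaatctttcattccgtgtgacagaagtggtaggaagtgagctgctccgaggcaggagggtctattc
Aldh1a1, chr19:20601718-20602017, plus strand: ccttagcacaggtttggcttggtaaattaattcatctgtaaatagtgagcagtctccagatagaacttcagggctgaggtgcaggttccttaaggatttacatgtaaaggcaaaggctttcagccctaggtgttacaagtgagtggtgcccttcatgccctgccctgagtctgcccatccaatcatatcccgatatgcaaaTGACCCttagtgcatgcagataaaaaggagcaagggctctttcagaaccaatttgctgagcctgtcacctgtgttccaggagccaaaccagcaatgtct
Cyp26b1, chr6:84593761-84594060, minus strand: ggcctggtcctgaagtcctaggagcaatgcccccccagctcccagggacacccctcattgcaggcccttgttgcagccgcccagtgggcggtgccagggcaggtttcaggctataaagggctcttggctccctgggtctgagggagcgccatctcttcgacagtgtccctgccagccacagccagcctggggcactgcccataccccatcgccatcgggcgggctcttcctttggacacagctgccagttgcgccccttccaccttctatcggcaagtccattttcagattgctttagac
The Rarb window holds 3 hexamers, of which the last 2 form a direct repeat with a spacer of 5 bases, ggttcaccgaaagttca, whose first base is position 198 of the window counted from 1 at its 5′ end. Such a repeat is in 32 of 32851 promoter windows of this length (0.0974%), and a single hexamer in 43.7% of them. Among the 9 genes no other window held that repeat, and among the 36 of 49 other pathway genes with a window Cyp26a1 alone did. The Aldh1a1 window printed holds 1 hexamer and the Cyp26b1 window none. These are matches of letters in a short window and say nothing of what binds there.

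Cyp26b1, which degrades retinoic acid, was the member whose fibroblast level was ordered most steeply by day among those above background. It was at 21.3 and 29.7 CPM at DIV3, 71.8 and 67.5 CPM at DIV5 and 152 and 131 CPM at DIV7, with no overlap between days and a fitted difference of 2.28 ± 0.23 (log2 ± SE) for DIV7 over DIV3. In the cluster led by Ifitm1 and Mgp it was 27.7 CPM in DIV3 replicate 2, 67.6 and 69.9 CPM at DIV5 and 166 and 160.0 CPM at DIV7. In the cluster led by Crct1 and Timp1 it was 21.3 and 32.2 CPM at DIV3, 83.5 and 59.1 CPM at DIV5 and 85.0 and 51.1 CPM at DIV7, so the further difference between DIV5 and DIV7 was seen in the first cluster and not in the second. Mural cell-like cells held 89.7 and 155 CPM at DIV3, the day on which they could be summed. Mural markers were also present in the fibroblasts, with 8 or 9 of 9 above 0. They summed to 2927 and 2877 CPM at DIV3, 2485 and 2338 CPM at DIV5 and 2347 and 2369.9 CPM at DIV7. Their part in the fibroblast level of Cyp26b1 was not tested.

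Neurons held Cyp26b1 at 11.2 CPM at DIV1 (9.47 to 13.3), 4.35 and 5.41 CPM at DIV3, 13.7 and 7.08 CPM at DIV5 and 36.4 and 24.4 CPM at DIV7. Both DIV7 libraries lay above all others. The clusters of neurons differed. In that led by Npas4 and Rprml the level was 3.12 and 2.91 CPM at DIV3, 14.7 and 7.76 CPM at DIV5 and 45.3 and 27.3 CPM at DIV7. In that led by Prox1 it was 28.0 CPM at DIV1, 8.01 and 10.9 CPM at DIV3, 12.2 and 3.99 CPM at DIV5 and 14.3 and 4.97 CPM at DIV7. With the stricter cell filter, which left 40 and 56 neurons at DIV7, their level was 5.92 and 23.0 CPM, against 4.16 and 4.08 CPM at DIV3. After thinning 3.69% of neurons had a Cyp26b1 UMI (6.49% before), against 0.897% of microglia (2.48%). Glia held 1.04 to 4.12 CPM of Cyp26b1, within the 0 to 9.08 CPM of microglia.

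Within fibroblasts the receptor for uptake and the enzyme for breakdown were found in the same cell less often than the product of their shares. Of 1922 fibroblasts thinned to 5000 UMIs, 103 had a UMI of both Stra6 and Cyp26b1, where the products of the shares within each library would give 170.3, a ratio of 0.605. The ratio was 0.490 and 0.677 in the DIV3 libraries, 0.577 and 0.508 in the DIV5 libraries and 0.611 and 0.721 in the DIV7 libraries, below 1 in all 6. Stra6 was found together with Aldh1a2 and with Rarb at 1.15 and 1.09 times the products, and Crabp1 together with Cyp26b1 at 1.66 times. By library these ratios were 0.95 to 1.39 for Aldh1a2, 0.95 to 1.33 for Rarb, and 0.541 to 2.37 for Crabp1 with Cyp26b1, the lowest in DIV3 replicate 1 from 2 cells with both. Stra6 was found together with Crabp1 at 0.534 times the products, in 27 cells, with 1.68 in DIV3 replicate 1 and at most 0.498 in the other 5 libraries. Ratios of this kind describe cells that share a library and are not a test.

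In counts thinned to 5000 UMIs, 270 fibroblasts had a UMI of Cyp26b1 and none of Stra6, and 706 had a UMI of Stra6 and none of Cyp26b1. The levels that follow are from their full counts, in which the first cells still held Stra6 at 29.5 CPM, against 248.7 CPM in the second, and the second held Cyp26b1 at 15.1 CPM, against 251.8 CPM in the first. The Crabp1 level was 13.1 and 56.0 CPM at DIV3, 80.8 and 14.5 CPM at DIV5 and 22.1 and 23.3 CPM at DIV7 in cells with Cyp26b1. It was 17.7 and 10.7 CPM, 11.3 and 2.44 CPM, and 2.24 and 1.19 CPM on those days in cells with Stra6, lower in 5 of 6 libraries. Rarb was lower in the cells with Cyp26b1 than in those with Stra6 in all 6 libraries, at 72.4 and 76.7 CPM against 79.1 and 103.9 CPM at DIV7. This contrast is with cells picked for Stra6. Over all thinned fibroblasts Rarb was found together with Cyp26b1 at 1.05 times the products of shares within libraries (0.927 to 1.22 by library). The 9 mural markers moved with this split, at 3338 to 4296 CPM in cells with Cyp26b1 and 1004 to 2749 CPM in cells with Stra6, higher in the first in all 6 libraries, and fibroblast markers summed to 3920 to 8706 CPM against 5418 to 10882 CPM. The part of the mural markers in the split was not tested.

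Genes whose levels ran most like those of a member were sought over 49 sums, each of 1 class in 1 library, from 12 classes, by Pearson's r of log2(CPM + 10). They were Ifitm1 (0.94), Gxylt2 (0.91) and Lox (0.90) for Stra6, Avpi1 (0.94), Bmp6 (0.93) and Tulp3 (0.92) for Rdh10, and A2m (0.93), C1ql1 (0.90) and Padi2 (0.89) for Aldh1a1. For Aldh1a2 they were Thbs2 (0.95), Ifitm1 (0.94) and Col1a2 (0.94), for Rarb Mmp2 (0.92), Ifitm1 (0.92) and Fbn1 (0.90), and for Cyp26b1 Cdh11 (0.87), Nkd2 (0.86) and Actg2 (0.85). Aldh1a3 had Ybx3 (0.71), Mtmr2 (0.66) and Etf1 (0.65), and Crabp1 had Npm3 (0.68), Ybx3 (0.61) and Flnc (0.61). Crabp2 had too few UMIs (866) for this list. The sums share libraries and classes, so these values order genes and carry no p.

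The 49 other pathway genes asked how the rest of the pathway differed between DIV7 and DIV3 within each class. Because they were chosen with earlier results of these data known, their counts, medians and p-values are not independent of that choice. In fibroblasts 31 of the 49 passed the filter on low counts, and 8 rose and 1 fell (edgeR quasi-likelihood test, Benjamini-Hochberg adjusted p under 0.05 over 12397 genes). The background was 23.9% of all genes called, 12.1% higher and 11.8% lower, and the median change of the 31 was 0.45 against 0.05 over all genes (log2). All 9 members were tested in the same fit and 3 of them, Aldh1a1, Crabp2 and Cyp26b1, were called higher. That count was fixed in part by how the members were chosen, and nothing is read from it.

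Among enzymes, Dhrs3, which reduces retinaldehyde back to retinol, was at 138 and 132 CPM in DIV7 fibroblasts, against 20.6 and 47.6 CPM at DIV3, and rose by 1.80 ± 0.33 (log2 ± SE, edgeR adjusted p = 0.0108). The alcohol dehydrogenase Adh7 was at 1.30 and 1.76 CPM at DIV7, against 8.18 and 5.88 CPM at DIV3, and fell by 2.41 ± 0.41 (adjusted p = 0.00853). For both genes the groups did not overlap.

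Of the receptors and cofactors, Rxra, the partner of retinoic acid receptors, was at 24.3 and 23.96 CPM at DIV7, against 6.29 and 11.2 CPM at DIV3 (1.28 ± 0.29, edgeR adjusted p = 0.0166). Nrip1, a receptor corepressor, was at 70.8 and 71.0 CPM against 20.3 and 32.4 CPM (1.24 ± 0.24, adjusted p = 0.0111). Of genes known to respond to retinoic acid, Rarres2 was at 35.3 and 73.6 CPM at DIV7, against 4.09 and 2.59 CPM at DIV3 (3.78 ± 0.50, adjusted p = 0.00707). Rarres1 (2.27 ± 0.59, adjusted p = 0.0286), the transglutaminase Tgm2 (1.31 ± 0.29, adjusted p = 0.0158) and Rai14 (0.87 ± 0.21, adjusted p = 0.0207) rose as well. Without DIV7 replicate 1 the count of other pathway genes called in fibroblasts was 2, without DIV7 replicate 2 it was 3, and in the other 4 fits that left out a library it was between 6 and 13. Without DIV3 replicate 1, 937 of all genes were called in fibroblasts, in place of 2968.

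In glia 35 of the 49 passed the filter, and 3 rose and none fell by the same edgeR test, where 9.91% of all 15143 genes were called (5.08% higher, 4.83% lower). The median change of the 35 was 0.49, against 0.05 over all genes. All 9 members were tested and 1, Aldh1a1, was called, from which nothing is read. Gprc5b, an orphan receptor of a family induced by retinoic acid, was at 99.4 and 118 CPM at DIV7, against 31.2 and 19.4 CPM at DIV3 (1.97 ± 0.35, adjusted p = 0.0318). The retinol dehydrogenase Rdh5 was at 17.0 and 23.0 CPM at DIV7, against 7.63 and 6.88 CPM (1.34 ± 0.32, adjusted p = 0.0475). The 3 calls ended without any 1 of DIV3 replicate 1, DIV7 replicate 1 and DIV7 replicate 2 and without the cluster led by Steap4 and Neat1 (0 other pathway genes called each, with 7 to 9 at an unadjusted p under 0.05 and 8 called by DESeq2 on all libraries), and 1 was called without DIV3 replicate 2. The folds stayed of like size, at 1.59 to 2.40 for Gprc5b and 1.00 to 1.60 for Rdh5 over all alternatives (log2).

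In neurons 31 of the 49 passed the filter, and 1 rose and 1 fell, where 7.04% of all 13276 genes were called (4.66% higher, 2.39% lower). The median change of the 31 was -0.19, against -0.05 over all genes. Of the members 7 were tested and 1, Cyp26b1, was called, from which nothing is read. Ncoa3, a receptor coactivator, was at 44.1 and 26.3 CPM at DIV7, against 13.1 and 16.5 CPM at DIV3 (1.28 ± 0.29, edgeR adjusted p = 0.0277). Fabp5, a fatty acid carrier that also takes retinoic acid, was at 585 and 776 CPM at DIV7, against 2127 and 1308 CPM at DIV3 (-1.35 ± 0.27, adjusted p = 0.0193). With the replicate number as a block, 4 of these genes and 2671 of all genes were called in neurons, in place of 2 and 935. With DIV7 replicate 1 or DIV7 replicate 2 left out the count was 0 (8 and 3 at an unadjusted p under 0.05, and 3 by DESeq2 on all libraries), without DIV3 replicate 1 it was 1 and without DIV3 replicate 2 it was 4. With the stricter cell filter it was 0.

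**Figure D4:**
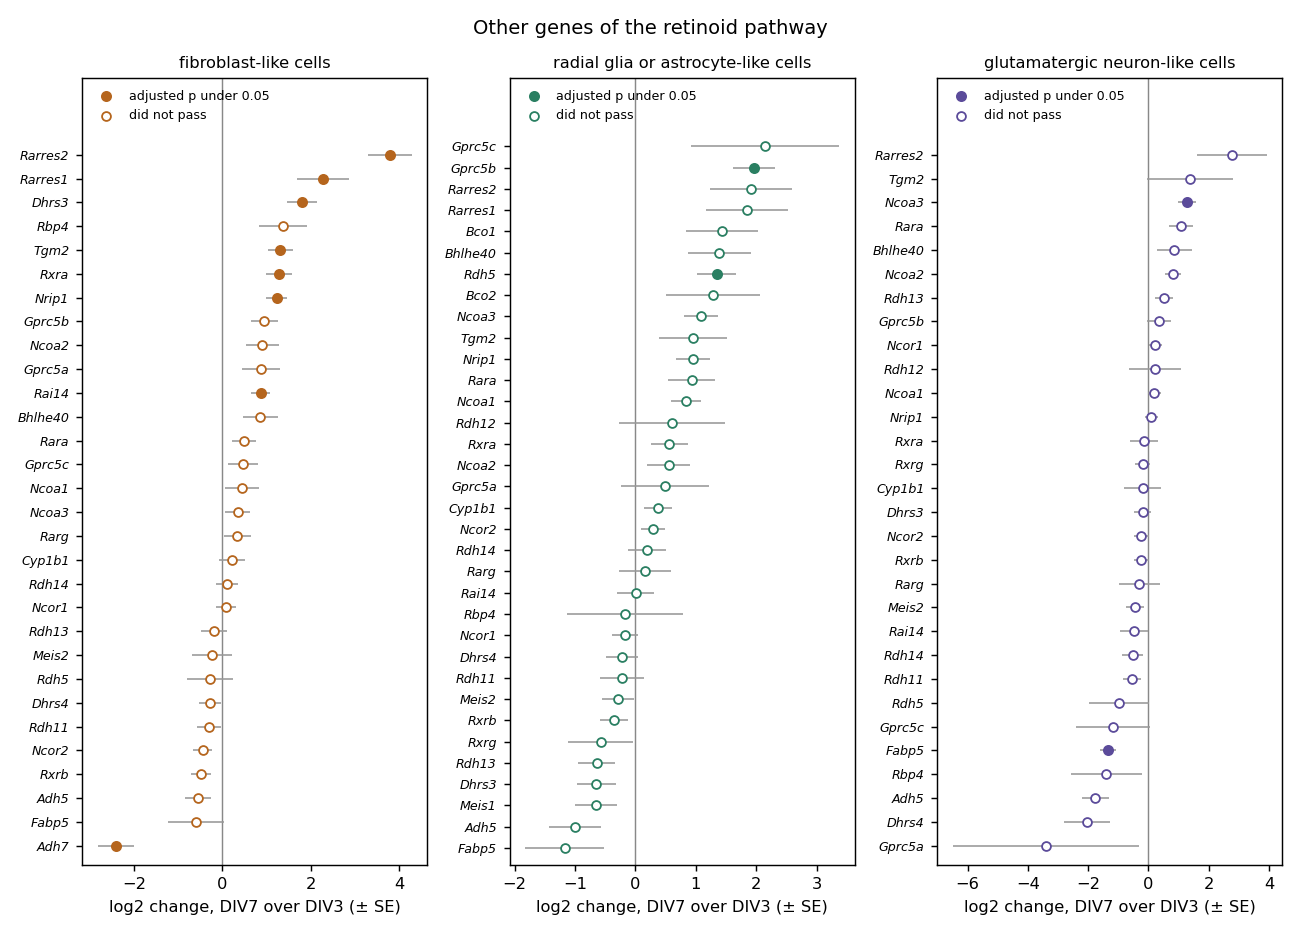
Change of the other pathway genes that passed the filter on low counts, as log2 of DIV7 over DIV3 with its standard error, in fibroblasts, glia and neurons. Filled points passed the edgeR test at an adjusted p under 0.05 and open points did not. In fibroblasts the filled points lie right of 0, Rarres2 the farthest at 3.78, with the exception of Adh7 at -2.41. The genes reported here are drawn.

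Classes were also compared within the same libraries. Between fibroblasts and glia, 32 of the 49 genes passed the filter, and 18 were higher and 10 lower in fibroblasts, where 65.2% of all 13223 genes were called (33.9% higher, 31.3% lower). The median of the 32 was 0.77, against 0.04 over all genes (log2). Dhrs3 had a median of 131.5 CPM in fibroblasts and 8.29 CPM in glia (3.81 ± 0.47, edgeR adjusted p = 9.94e-05). Medians here and below are over all libraries of a class, 6 for fibroblasts and 7, with DIV1, for glia. The test of fibroblasts against glia used the 6 libraries that held both. Higher in fibroblasts were also Adh7 (4.80 ± 0.51, adjusted p = 3.56e-05), Gprc5c (3.15 ± 0.50, adjusted p = 0.000452), Rai14, Tgm2 and Rxra.

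Lower in fibroblasts were Meis2, a homeobox gene of the forebrain, with a median of 4.12 CPM in fibroblasts and 162 CPM in glia (-4.98 ± 0.13, edgeR adjusted p = 3.05e-08), its relative Meis1 (-3.63 ± 0.43, adjusted p = 7.18e-05) and the receptor Rxrg (-3.64 ± 0.62, adjusted p = 0.000759). The partner receptors thus stood on both sides, with Rxra higher in fibroblasts and Rxrg higher in glia. The glial level of Rxrg was low, with a median of 1.80 CPM, against 0.13 CPM in fibroblasts and 21.2 CPM in neurons. It was not set against the level in microglia. Of the 9 members, 9 were tested and 9 called, 7 higher in fibroblasts and 2, Rdh10 and Aldh1a1, lower, from which nothing is read.

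Between glia and neurons, 28 of the 49 passed the filter, and 13 were higher and 10 lower in glia, where 70.4% of all 13250 genes were called (37.0% higher, 33.4% lower). The median of the 28 was 0.11, against 0.07 over all genes. Higher in glia were Rarres2 (4.79 ± 0.31, edgeR adjusted p = 1.76e-07), the oxidase Cyp1b1 with a median of 64.6 CPM in glia and 3.17 CPM in neurons (4.25 ± 0.27, adjusted p = 1.65e-07), Bhlhe40 (3.93 ± 0.16, adjusted p = 7.57e-09) and Rdh5 (3.51 ± 0.34, adjusted p = 3.66e-06). Tgm2, Dhrs4, Gprc5b, Meis1 and Rai14 were higher in glia as well. Rxrg was higher in neurons, with a median of 1.80 CPM in glia and 21.2 CPM in neurons (-3.13 ± 0.23, adjusted p = 3.82e-07). Of the members 6 were tested, with 4 called higher in glia and 1, Cyp26b1, lower, from which nothing is read. The other degrading enzymes, Cyp26a1 and Cyp26c1, are named here after their values were seen: no library of fibroblasts, glia or neurons held more than 2 UMIs of Cyp26a1, and no UMI of Cyp26c1 was found in them at this depth.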

How the data were processed

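Droplet libraries of cultured P0 mouse hippocampal cells were analysed from the UMI counts that the authors deposited, 1 gene-by-barcode matrix per library. Per the submitters' processing notes the counts were made with Cell Ranger 4.0.0 against mm9, while the software version per the file headers is 3.0.2, so the version is uncertain. The counts are whole UMIs and were not normalized. The 9 genes, the 49 other pathway genes and the marker lists were chosen with earlier results of these data known.

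Of 28846 barcodes, those with 500 or more genes and no more than 10% mitochondrial UMIs stayed in, and 340 of 28050 scored barcodes (1.21%) were removed as doublets (Scrublet, through scanpy 1.11.5, with an expected rate of 0.8% per 1000 barcodes). The rest were clustered (2000 variable genes without the 9 and the 49, 30 components, 15 neighbours, Leiden resolution 1, seed 1, Python 3.11.15). A cluster was named from fixed markers when its score was at least 0.25 and 1.2 times that of the next class, with 3 markers at 50 CPM or more. These limits were set after the clusters had been seen, so class shares depend on rebuilt names.

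Counts were summed per class and library, with at least 20 cells a sum. Levels are CPM of the class total per library, without further scaling. Cells are not replicates. Changes came from edgeR 4.0.16 in R 4.3.3 (TMM, low-count filter, quasi-likelihood test, Benjamini-Hochberg adjustment over all genes tested), with DESeq2 1.42.0 as an alternative, and the code was tested on simulated counts. Classes of the same libraries were compared with the library as a block. The reported tests between days used a mean per day and no replicate block, which was run as an alternative only. By measured deviations alone, replicate numbers paired libraries of fibroblasts (correlations of deviations 0.303, 0.138 and 0.290) and of neurons (0.360, 0.156 and 0.298). No label names a shared batch. Intervals and floors (3 counts) cover counting error only.

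The genes named are the 9, at most the 10 other pathway genes with the largest change among those called in a comparison, and the 3 genes most like each of the 9 with at least 2000 UMIs, among genes with a mean of at least 20 CPM over sums of at least 50 cells. Promoters came from RefSeq, GRCm38.p6. Alternatives were other scalings and filters, a stricter cell filter, finer clusters, removal of top doublet scores, the replicate block, each library left out and, chosen after seeing the data, the glial cluster that holds Wisp2 and C1ql3 among its leading genes left out. Some genes, though tested and counted, are not reported here by name or drawn.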

Additional observations from a re-analysis of the deposited data

Results flagged for a closer look

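In 113 comparisons of a gene between a pair of classes, 3 genes had every DIV7 library above every DIV3 library in one class and below it in another. None of these differences between classes was tested. Crabp2 differed by 0.84 in fibroblasts and by -2.15 in neurons (log2, DIV7 over DIV3), where the neuronal level was 0.241 and 0 CPM at DIV7, against 0.871 and 0.730 CPM at DIV3. Rdh5 differed by 1.34 in glia and by -0.97 in neurons, where it rests on 3 and 0 UMIs at DIV7, against 15 and 5 UMIs at DIV3. Dhrs3 differed by 1.80 in fibroblasts, by -0.65 in glia and by -0.19 in neurons. Its glial level was 7.98 and 4.71 CPM at DIV7, against 9.53 and 8.29 CPM at DIV3, and its neuronal level was 11.1 and 11.6 CPM at DIV7, against 13.6 and 11.8 CPM at DIV3.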

How the results depend on the processing

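Across 20 settings no change of a named other pathway gene reversed its direction: 510 of 556 recomputed changes stayed on the same side of the threshold and 46 lost their call. Of 441 recomputed changes of the 9 genes, 360 stayed within 1 SD. Small ones crossed 0 under some settings: with 1 library left out, Crabp1 ranged from -0.46 to 0.71 in glia and from -0.57 to 0.99 in neurons, Aldh1a3 from -0.54 to 1.67 in glia and from -0.23 to 1.07 in neurons, and Rarb from -0.65 to 0.29 in neurons. For glia, DIV7 against DIV3, 3 other pathway genes and 1501 of all genes were called. DESeq2 called 8 and 3038, the replicate block 11 and 3254, and all genes called were 2949 with no low-count filter, 2327 with top doublet scores removed and 2537 with finer clusters. Without the glial cluster led by Steap4 and Neat1 both counts were 0, with 7 and 2761 at an unadjusted p under 0.05. With 1 library left out they ranged from 0 to 3 and from 0 to 1522 (0 genes without DIV3 replicate 1 or DIV7 replicate 2, 4 for DIV7 replicate 1 and 949 for DIV3 replicate 2). For fibroblasts, with 9 and 2968 called, the ranges were 2 to 13 and 234 to 4160 (937 when DIV3 replicate 1 was left out, 234 for DIV7 replicate 1 and 387 for DIV7 replicate 2), and the replicate block called 11. For neurons, with 2 and 935 called, no low-count filter gave 4 and 2137, the stricter cell filter 0 and 2 (5 other pathway genes at an unadjusted p under 0.05) and the replicate block 4 and 2671. With 1 library left out the neuron counts ranged from 0 to 4 and from 104 to 2772 (343 when DIV3 replicate 1 was left out, 2772 for DIV3 replicate 2, 104 for DIV7 replicate 1 and 132 for DIV7 replicate 2). Leaving out a DIV3 or DIV7 library leaves 1 of that day, which is assumed to vary like the others. Between fibroblasts and glia 27 to 29 other pathway genes and 7897 to 8523 of all genes were called with 1 library left out, and between glia and neurons 21 to 24 and 8634 to 9707. Replicate numbers of glia paired DIV5 with DIV7 (correlation 0.699) but did not pair DIV3 with DIV5 or DIV7 (0.0399 and 0.0219). In the blocked glial counts DIV3 therefore shares only a number with the other days. Over the settings that keep all libraries, the glial Aldh1a1 difference ranged from 3.47 to 5.11 and the neuronal Cyp26b1 difference from 1.77 to 2.69 on the log2 scale. The causes were not tested. Depth limits Crabp2 and the neuronal values of most of the 9 genes, which rest on few UMIs.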
